A study of Rattus norvegicus with 8 samples.

Results

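Nascent RNA in rat neurons that had already been silenced once with tetrodotoxin (TTX) was compared between cultures that received TTX again (TT) and cultures that received only vehicle (TH). Members were the 2 TT and 2 TH libraries, 4 of the 8 in the series, and all expressed genes entered the comparison. The cells were primary hippocampal and cortical neurons of newborn Sprague Dawley rats grown together. All 4 libraries came from cultures given 1 µM TTX for 24 h from day 14 in vitro and then washed for 48 h. On day 17 the TT cultures received TTX and the TH cultures received water for 4 h. The remaining libraries, used as a comparison, had water as the first treatment and then TTX (HT, 2 libraries) or water again (HH, 2 libraries). In every group bromouridine (BrU) at 2 mM was present for the last 30 min, so that RNA made in that window could be captured and sequenced (BrU-seq). TH therefore carries 1 silencing followed by washout, and TT the same history with a new silencing on top. The labels do not state that the replicates came from different cultures or litters. The p-values therefore speak only to how far these libraries vary, and part of that may be technical.

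TTX blocks voltage-gated sodium channels and with them action potentials. In active neurons calcium entry switches on rapid genes such as Fos, Arc and Npas4, and later genes such as Bdnf, while long silencing is known to bring homeostatic changes at synapses. Neuronal cultures of this kind also hold astrocytes and cells of the oligodendrocyte lineage, which take part in cholesterol supply and myelin formation. Sterol synthesis is governed by SREBP transcription factors, which drive the enzymes of the pathway when cell sterol is low.

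Total counts were 3489176 and 4959887 in the TH libraries and 3940806 and 4907817 in the TT libraries. All 10 neuron defining markers passed the expression filter, with summed levels of 4523 and 5205 CPM (read counts scaled to a common normalised library total) in TH and 4967 and 4309 CPM in TT. Some markers of microglia (Aif1, Tyrobp, Trem2 and P2ry12) and vessels (Cldn5 and Cdh5) had 0 to 3 counts per library. Below the filter were 8 of 15 microglia and 9 of 14 vascular and fibroblast genes. Other members were higher: Cx3cr1 measured 6.35 and 6.07 CPM in TH and 8.72 and 4.78 CPM in TT. Flt1 measured 55 and 49.6 CPM in TH and 70.5 and 42.8 CPM in TT. Astrocyte and oligodendrocyte lineage genes were well expressed, with Gfap at 349 CPM or more and Olig2 at 112 CPM or more in each of the 4 libraries. In bulk libraries fewer cells of a type and less RNA per cell cannot be told apart, and CPM values hide a change shared by all genes.

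The libraries also differed in a way that the groups do not explain. Eif2s3y, a Y-linked gene, had 249 counts in TH replicate 2 but 1 in TH replicate 1, 3 in TT replicate 1 and 0 in TT replicate 2. HH replicate 2 and HT replicate 2 were high as well, with 215 and 191 counts, against 0 and 2 in their first replicates. Y-linked reads thus differed within TH but not within TT, whereas HT and HH each had 1 high and 1 low library. What set this split is not in the labels, and its part in the results is described below only by refitting. Pole2, a DNA polymerase subunit, stood at 4.7 CPM in TH replicate 1 against 978 CPM in TH replicate 2, 766 and 982 CPM in TT and at least 1063 CPM in the HH and HT libraries. Most gene groups below are therefore given also without TH replicate 2, which leaves libraries with low Y-linked counts, and from a fit with the level of Y-linked reads as a covariate. TH replicate 1 and replicate 2 correlated at 0.983 across genes in log2 CPM, and the TT replicates at 0.987, while TH replicate 2 correlated at 0.988 with each TT library.

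No gene passed the threshold between TT and TH. Of 16871 genes, 11372 were tested with edgeR's quasi-likelihood test, and 0 (0%) had a Benjamini-Hochberg adjusted p under 0.05. Every adjusted p rounded to 1. Without adjustment 300 genes (2.64% of those tested) had a p under 0.05, 195 higher in TT (1.71%) and 105 lower (0.923%). DESeq2 called 0 genes after adjustment, and before it had 68 higher and 32 lower genes under 0.05. The changes were small for most genes, with quartiles of the log2 change at -0.12 and 0.12, a median of 0.00 and a median standard error of 0.19. Both TT libraries lay above both TH libraries for 1812 genes (15.9%) and below both for 1604 (14.1%). Among genes at p under 0.05 this held for 192 of 195 higher and 105 of 105 lower genes. For genes named by their small p, groups that do not overlap therefore add no support. What follows describes gene groups and the genes of smallest p by their values. The gene lists were chosen with earlier results of these data known. A list count above the share of all genes is therefore a description and no test of the list. Where a gene is counted at p under 0.05 this is the unadjusted edgeR p. Counts within a gene list from all libraries compare with the 1.71% higher and 0.923% lower of all tested genes. These shares do not hold for counts from the other fits, where other numbers of all genes had such a p. With the covariate 202 genes were lower. Intervals are 95% intervals of the log2 change from the same fit, and since they are not adjusted either, one that leaves out 0 is no call.

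**Figure D1:**
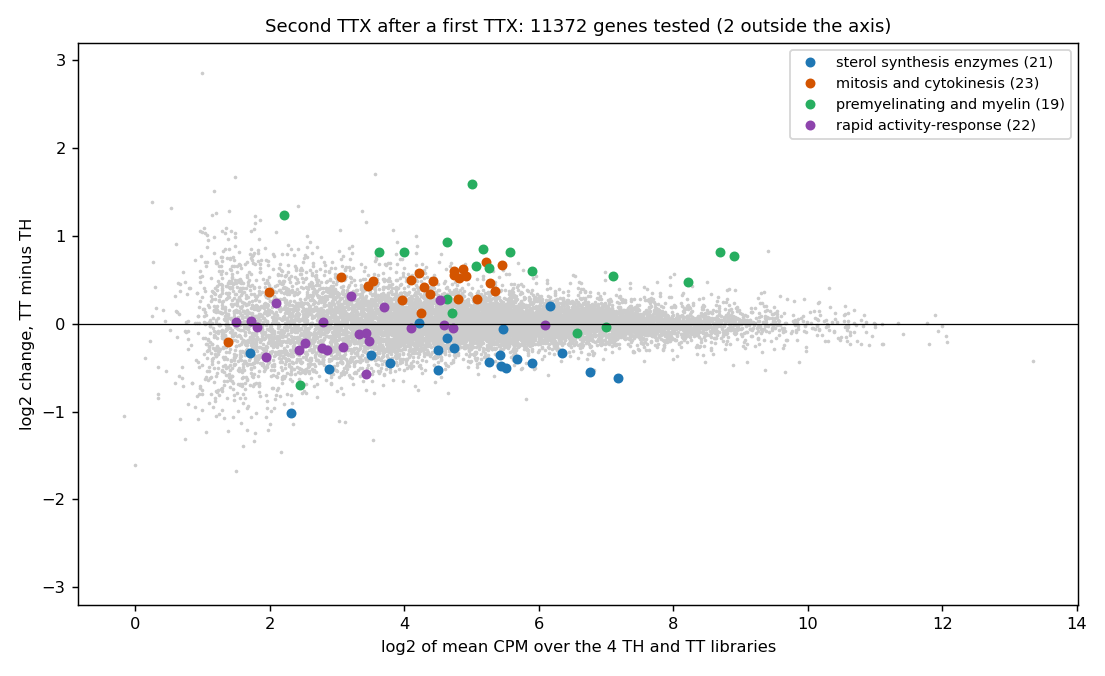
Log2 change (TT minus TH) of each tested gene against the log2 of its mean CPM over the 4 libraries, with 4 gene groups coloured and their numbers of tested genes in the key. Sterol enzymes lie mostly below 0, mitosis and oligodendrocyte genes mostly above 0, and rapid activity-response genes around 0.

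Genes of sterol synthesis stood lower in TT. Of the 12 enzymes from acetyl-CoA to lanosterol, 10 had a log2 change below 0, with a median of -0.40. In 5 of the 12 both TT libraries lay under both TH libraries, and 2 were lower at p under 0.05. All 9 later enzymes, which turn lanosterol into cholesterol, were below 0, 8 with both TT libraries under both TH libraries and 3 with p under 0.05, also with a median of -0.40. Over all tested genes 49.1% were below 0, 14.1% had both TT libraries under both TH libraries, and 0.923% were lower at p under 0.05.

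Hmgcs1, the cytosolic HMG-CoA synthase, measured 189 and 161 CPM in the TH libraries and 123 and 105 CPM in the TT libraries. The groups did not overlap, and the log2 change was -0.62 (SE 0.16, 95% interval -0.97 to -0.27). Idi1, the isopentenyl diphosphate isomerase, stood at 29.8 and 23.7 CPM in TH and at 18.7 and 18.1 CPM in TT. Its groups did not overlap either, with a log2 change of -0.53 and an interval of -1.09 to 0.03. Sqle, the squalene epoxidase, had 49.2 and 51.8 CPM in TH and 30.6 and 41.6 CPM in TT. Its log2 change was -0.48 (SE 0.20, interval -0.92 to -0.03). Fdps and Mvd, which make farnesyl diphosphate and its precursor, had log2 changes of -0.43 and -0.45, and in both genes TT replicate 2 overlapped with the TH values. Ggps1, which leads to geranylgeranyl groups and not to sterols, and Pmvk, the phosphomevalonate kinase, were the 2 enzymes above 0, with log2 changes of 0.20 and 0.01.

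Among the later enzymes Tm7sf2, a sterol C14 reductase, showed the lowest value. It measured 6.35 and 7.08 CPM in TH and 2.99 and 3.59 CPM in TT, a log2 change of -1.02 (SE 0.34, interval -1.77 to -0.27). Msmo1, a sterol C4 methyl oxidase, measured 57.2 and 59.9 CPM in TH and 39.1 and 49.6 CPM in TT (log2 change -0.40, interval -0.78 to -0.01). In both of these enzymes TT replicate 1 was the lowest library of the 4. Dhcr7, Cyp51 and Sc5d had log2 changes of -0.36, -0.45 and -0.16, and of these only Sc5d overlapped between groups.

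Genes of sterol uptake and SREBP control showed a split picture. Stard4, a carrier that moves sterol within the cell, measured 12.7 and 11.3 CPM in TH and 4.48 and 6.37 CPM in TT (log2 change -1.12, SE 0.33, interval -1.85 to -0.39). Both TT libraries lay below both TH libraries. Of 12 tested members of the SREBP control and uptake list 2 had a p under 0.05, both lower. The list's median was -0.03. Insig1, which holds SREBP in the endoplasmic reticulum, had a log2 change of -0.47 (interval -1.04 to 0.10), Srebf2 one of -0.10 and Srebf1 one of 0.33, so that the regulators themselves did not share a direction. In the efflux list Abca1, a cholesterol exporter, measured 212 and 187 CPM in TH and 275 and 222 CPM in TT (log2 change 0.32, interval 0.01 to 0.63), the 1 of 9 tested members at p under 0.05, and the list's median was 0.06. Without TH replicate 2 the medians of the uptake and efflux lists were -0.04 and -0.02, with 2 lower and 0 genes at p under 0.05, and with the covariate -0.09 and 0.03, with 3 lower and 1 higher in the first and 0 in the second. Fatty acid synthesis, another SREBP target group, had 0 of 12 genes at p under 0.05, Scd1 (-0.42) and Fads2 (-0.19) included, and 0 also without TH replicate 2 and with the covariate.

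The size of the sterol difference depended on the TT libraries. Without TT replicate 1 the medians of the early and later enzymes were -0.15 and -0.24, with 1 of 12 and 0 of 9 at p under 0.05, and without TT replicate 2 they were -0.65 and -0.58, with 7 and 5. Without TH replicate 2 the medians were -0.44 and -0.44, with 2 and 1 members at p under 0.05. With the level of Y-linked reads as a covariate they were -0.48 and -0.50, with 5 and 6.

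**Figure D2:**
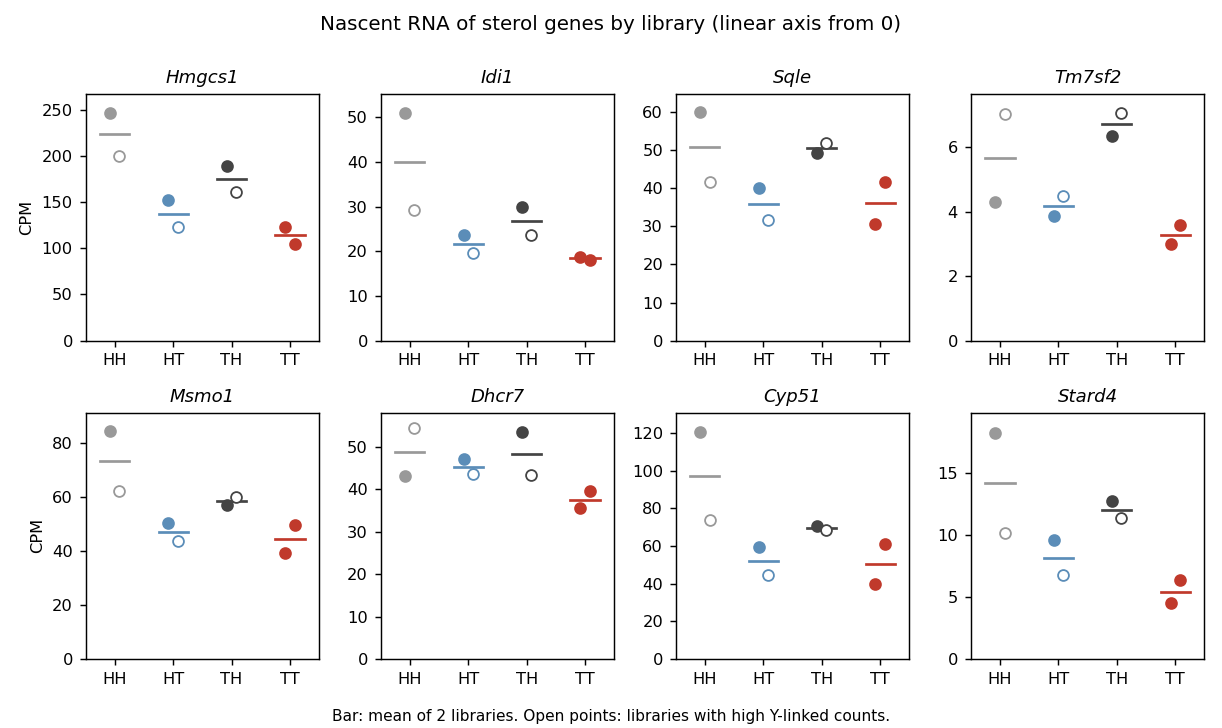
CPM of 8 sterol synthesis and uptake genes in each library (points, bar at the mean of 2) for the 4 groups, with open points for libraries with high Y-linked counts. All 8 genes lie lower in both TT libraries than in both TH libraries. The genes shown are not typical of the early enzymes. Both TT libraries lay under both TH libraries for 5 of 12 early and 8 of 9 later enzymes, and above both for 1 early enzyme. Fdps, Mvd and Sc5d were among those that overlapped.

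SREBP works beside the factor NF-Y, whose binding sequence is CCAAT, and the promoters of the sterol enzymes were searched for it. RefSeq promoters (rat build GRCr8, the 250 bases before the start of each gene) were at hand for 8627 tested genes and for 16 of the 21 sterol enzymes. CCAAT on either strand stood in 13 of the 16 (81.2%) and in 35.2% of all 8627. TCACNCCAC, a common form of the sterol response element, stood in 0 of the 16 and in 0.974% of all, which says only that these letters are not in this window. The 2 enzymes with the smallest p and a promoter in the table are shown because both lay lower in both TT libraries. Capitals mark CCAAT, which reads ATTGG where it lies on the other strand. Hmgcs1 (chr2:53382054-53382303, plus strand) holds it at 188 to 184 and 133 to 129 bases before the start, and Tm7sf2 (chr1:212789542-212789791, minus strand) at 89 to 85.
Hmgcs1: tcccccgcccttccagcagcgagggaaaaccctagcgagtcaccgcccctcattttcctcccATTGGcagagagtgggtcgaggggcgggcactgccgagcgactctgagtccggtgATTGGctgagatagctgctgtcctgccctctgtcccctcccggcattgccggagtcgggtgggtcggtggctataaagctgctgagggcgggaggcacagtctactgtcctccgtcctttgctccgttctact
Tm7sf2: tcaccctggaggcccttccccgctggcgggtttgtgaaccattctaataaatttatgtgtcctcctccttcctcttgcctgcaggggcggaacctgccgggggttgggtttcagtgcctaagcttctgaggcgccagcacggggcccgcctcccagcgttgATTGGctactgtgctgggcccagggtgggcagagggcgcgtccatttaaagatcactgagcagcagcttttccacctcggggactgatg
A match of letters describes the promoter and does not show that a factor was bound there. Stard4 was not in the promoter table.

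Genes of oligodendrocytes that have left the progenitor stage stood higher in TT. Of 11 premyelinating genes, 10 had a log2 change above 0 against 50.9% of all genes, with a median of 0.77. Both TT libraries lay above both TH libraries for 6, against 15.9% of all, and 5 were higher at p under 0.05. At that p 1.71% of all tested genes were higher and 0.923% lower. Of 14 myelin genes 8 were tested, 5 of them with p under 0.05 higher and 1 lower, with a median of 0.63. The other 6, Mog and Mag among them, were below the filter. Summed over the list, premyelinating genes held 1075 and 1426 CPM in TH, 1419 CPM in TT replicate 1 and 2486 CPM in TT replicate 2.

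Enpp6, a phosphodiesterase of newly forming oligodendrocytes, measured 30.9 and 38 CPM in TH and 50.8 and 70.5 CPM in TT. The groups did not overlap, and the log2 change was 0.81 (SE 0.19, interval 0.39 to 1.24). Tcf7l2, a transcription factor of differentiating oligodendrocytes, measured 22.9 and 28.3 CPM in TH and 36.9 and 56 CPM in TT (log2 change 0.86, SE 0.21, interval 0.40 to 1.31). Gpr17, a receptor of committed progenitors, measured 9.39 and 13.8 CPM in TH and 14.9 and 25.9 CPM in TT (log2 change 0.81, SE 0.28, interval 0.20 to 1.42). Itpr2, an endoplasmic reticulum calcium channel, and Tns3, a focal adhesion protein, had log2 changes of 0.47 and 0.81. Bcas1 and Myrf, the latter a driver of myelin genes, overlapped between groups: Myrf stood at 24 and 36 CPM in TH and at 24.7 and 68.7 CPM in TT. In all of these genes TT replicate 2 was the highest of the 4 libraries.

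Tspan2, a tetraspanin of the lineage, measured 42.8 and 52.2 CPM in TH and 62.5 and 82.1 CPM in TT (log2 change 0.60, interval 0.24 to 0.97). It was higher in both TT libraries. Ugt8, which makes the myelin lipid galactosylceramide, Cldn11, a tight junction protein of myelin, and Cnp had log2 changes of 0.93, 1.24 and 0.66, with TT replicate 1 close to or within the TH values for Ugt8 and Cnp. Mbp, the myelin basic protein, overlapped between groups at 133 and 129 CPM in TH and 91.9 and 161 CPM in TT.

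Progenitor genes had a smaller median with all libraries. Of 12 tested, 11 were above 0 with a median of 0.24. Both TT libraries lay above both TH libraries for 8, against 15.9% of all genes. At p under 0.05 was 1, Olig2, at 125 and 112 CPM in TH and 138 and 148 CPM in TT. Without TT replicate 2 the progenitor median was 0.17 and the premyelinating median 0.14, so the order of these lists depended on that library. Pdgfra, the defining receptor of progenitors, had a log2 change of 0.15 (interval -0.17 to 0.47), and Cspg4, the NG2 proteoglycan, one of 0.04 (-0.22 to 0.31). Sox6 and Vcan had log2 changes of 0.40 (interval -0.02 to 0.83) and 0.50 (-0.09 to 1.09). Among 16 astrocyte genes 1 had a p under 0.05, Gfap, at 489 and 349 CPM in TH and 546 and 543 CPM in TT (log2 change 0.38, interval 0.01 to 0.75), and the list's median was 0.10. The progenitor median was 0.36 without TH replicate 2, with 3 genes at p under 0.05, and with the covariate 0.28 with 2, while the astrocyte median was 0.07 in both fits, with 1 lower gene in the former and 0 in the latter.

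TT replicate 2 decided much of the oligodendrocyte result. Without it the premyelinating median was 0.14 with 2 of 11 genes at p under 0.05, and the myelin median 0.33 with 1 gene higher and 1 lower. Without TT replicate 1 the medians were 1.12 and 0.93. Without TH replicate 2 they were 0.98 and 0.72, and with the covariate 0.76 and 0.69. Whether the number of lineage cells in that library differed was not tested.

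Genes of mitosis and cytokinesis stood higher in both TT libraries for most members, a larger share than in any other list. Of 28 genes 23 were in the table, and all 23 were tested. Of these 22 had a log2 change above 0, against 50.9% of all tested genes, and the median was 0.48. Both TT libraries lay above both TH libraries for 20, against 15.9% of all. Higher at p under 0.05 were 10, against 1.71% of all. Their summed level was 417.7 and 475 CPM in TH and 614.9 and 629 CPM in TT. Leaving out any 1 of the TT or TH libraries gave medians from 0.41 to 0.57 and 4 to 9 members at p under 0.05, and the covariate fit gave 0.59 and 14.

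Smc4, a core subunit of condensin, which compacts chromosomes for division, measured 33.7 and 33.8 CPM in TH and 57.8 and 49.8 CPM in TT. It had the smallest p of genes above 5 CPM, with a log2 change of 0.67 (SE 0.16, interval 0.33 to 1.01). Smc2, its partner in condensin, measured 19.3 and 23.9 CPM in TH and 32.1 and 31.7 CPM in TT (log2 change 0.55, interval 0.18 to 0.92). Ect2, an exchange factor needed for cytokinesis, measured 26.8 and 30 CPM in TH and 50.8 and 41.8 CPM in TT (log2 change 0.70, SE 0.16, interval 0.34 to 1.06). In all 3 genes the groups did not overlap, as in 192 of the 195 genes higher at p under 0.05. Top2a, the topoisomerase of dividing cells, measured 24 and 25.1 CPM in TH and 37.1 and 34.5 CPM in TT (log2 change 0.54, interval 0.09 to 0.98). Mki67, the proliferation marker Ki-67, measured 17.7 and 28.1 CPM in TH and 32.6 and 38.4 CPM in TT (log2 change 0.62, SE 0.23, interval 0.12 to 1.11). Cdk1, the mitotic kinase, Cenpf, a kinetochore protein, and Tpx2, a spindle factor, had log2 changes of 0.50, 0.60 and 0.53. Ccnb2 was the 1 member below 0, at under 3 CPM in each of the 4 libraries. Outside the list but among the 12 higher genes of smallest p stood Knstrn, a spindle protein, and Depdc1b, with log2 changes of 1.16 and 1.00.

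Genes of DNA replication were less uniform. Of 25 tested, 22 were above 0, against 50.9% of all genes, and the median was 0.13. Both TT libraries lay above both TH libraries for only 4 of the 25, against 15.9% of all. Higher at p under 0.05 were 2, against 1.71% of all: Mcm4 and Mcm3. Mcm4 measured 11.6 and 11.5 CPM in TH and 19.2 and 19.3 CPM in TT (log2 change 0.73, interval 0.25 to 1.22). Mcm3 had a log2 change of 1.51 (interval 0.30 to 2.71) at 1.01 to 4.38 CPM. Both encode parts of the replicative helicase. Rrm2, of ribonucleotide reductase, and Pole had log2 changes of 0.52 (interval -0.02 to 1.06) and 0.57 (-0.03 to 1.17). The median depended on single libraries: it was 0.06 without TH replicate 1, with 15 of 25 above 0, and 0.34 without TH replicate 2, with 4 at p under 0.05. With the covariate it was 0.24, also with 4, and it was 0.26 without TT replicate 1 and 0.10 without TT replicate 2.

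**Figure D3:**
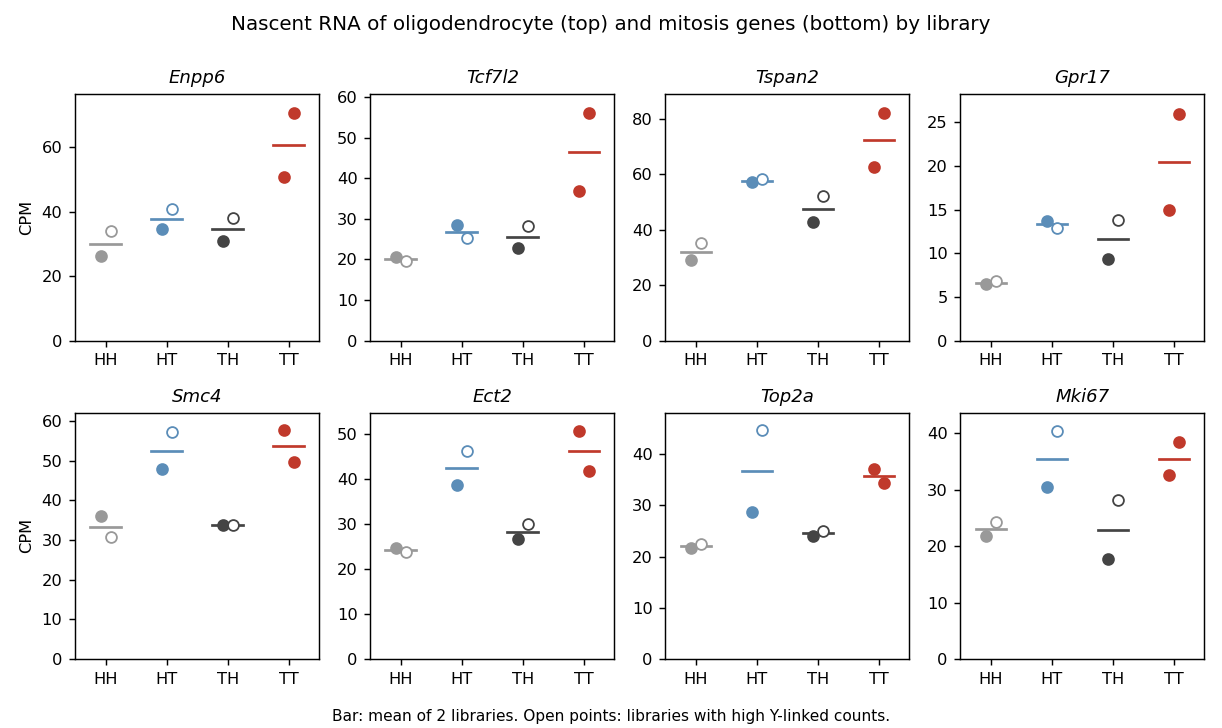
CPM of 4 oligodendrocyte genes (top) and 4 mitosis genes (bottom) in each library (points, bar at the mean of 2), with open points for libraries with high Y-linked counts. TT replicate 2 is the highest point for the oligodendrocyte genes, while for Smc4, Ect2, Top2a and Mki67 both TT points lie above both TH points.

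Many cell cycle promoters carry CCAAT together with the CHR element TTTGAA, which MuvB complexes bind. Among 20 mitosis genes with a RefSeq promoter, 16 held CCAAT (80%, against 35.2% of all 8627) and 12 held TTTGAA (60%, against 10.1%) on either strand. The promoters of Smc4 and Ect2, the 2 list members of smallest p, are shown for this reason, with both motifs in capitals, as ATTGG and TTCAAA on the other strand. The motifs do not overlap in either. Smc4 (GRCr8, chr2:155550012-155550261, plus strand) has TTTGAA at 78 to 73 and 60 to 55 bases before the start, and Ect2 (chr2:111966627-111966876, minus strand) at 155 to 150.
Smc4: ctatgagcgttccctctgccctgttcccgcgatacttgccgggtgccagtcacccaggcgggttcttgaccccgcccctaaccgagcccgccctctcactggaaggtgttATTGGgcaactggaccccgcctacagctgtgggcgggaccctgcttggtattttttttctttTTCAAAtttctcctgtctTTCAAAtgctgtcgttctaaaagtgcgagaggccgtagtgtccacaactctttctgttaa
Ect2: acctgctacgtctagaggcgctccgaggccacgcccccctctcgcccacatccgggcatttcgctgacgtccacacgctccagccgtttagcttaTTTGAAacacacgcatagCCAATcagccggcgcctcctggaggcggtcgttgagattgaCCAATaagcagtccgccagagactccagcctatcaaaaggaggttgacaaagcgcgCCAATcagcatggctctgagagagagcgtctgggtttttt
The premyelinating genes, which also stood higher in TT, held CCAAT in 2 of 9 promoters and TTTGAA in 1 of 9.

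Activity-response genes did not separate TT from TH. Of 22 tested rapid genes 0 had a p under 0.05, 7 were above and 15 below 0, and the median was -0.05. Of 25 later genes 0 had a p under 0.05, with a median of 0.00, and of 14 genes of ERK feedback 0, with a median of 0.04. By unadjusted p all 3 counts compare with 2.64% of all tested genes.

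Fos measured 9.67 and 6.88 CPM in TH and 11 and 9.36 CPM in TT, a log2 change of 0.31 with an interval of -1.66 to 2.29. Npas4, a neuron-specific activity factor, measured 3.87 and 3.24 CPM in TH and 3.74 and 3.19 CPM in TT (interval -4.11 to 4.04). Arc, which acts at the synapse in receptor removal, measured 8.56 and 3.64 CPM in TH and 4.24 and 5.18 CPM in TT (interval -2.66 to 2.06). TT values lay within or next to the TH values in all 3. The wide intervals came with a large spread between the HH libraries, which share the estimate of error. Junb, an AP-1 subunit, had the lowest rapid-gene change, -0.57, with 15.5 and 10.5 CPM in TH and 8.22 and 8.96 CPM in TT. Egr1 (27.9 and 25.9 CPM in TH, 23.2 and 28.5 CPM in TT) and Nr4a1 (12.4 and 11.5 CPM in TH, 9.97 and 10.8 CPM in TT) had log2 changes of -0.05 and -0.20. Bdnf, the neurotrophin, measured 19.3 and 10.9 CPM in TH and 17.7 and 12.9 CPM in TT, and Homer1, a scaffold with an activity-dependent short form, 276 and 350 CPM in TH and 329 and 315 CPM in TT. Nptx2, a pentraxin that clusters AMPA receptors, measured 18.5 and 13 CPM in TH and 16.9 and 14.3 CPM in TT. In these 3 genes the TT values lay inside the TH range. Vgf, a secreted peptide precursor, was at 110 CPM in TH replicate 1, against 35.2 CPM in TH replicate 2 and 49.3 and 29.9 CPM in TT.

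Across all 8 libraries HH replicate 1 stood alone. The rapid genes summed to 938.2 CPM in HH replicate 1, 274.6 CPM in HH replicate 2, 378.5 and 299 CPM in HT, 312.7 and 263.5 CPM in TH and 275.8 and 279.5 CPM in TT. Thus the TT and TH libraries, HT replicate 2 and HH replicate 2 all lay between 263.5 and 312.7 CPM. The result for TT and TH also depended on the spread of Y-linked reads: with that level as a covariate the median of the rapid genes was -0.50, with 19 of 22 below 0 and 1 at p under 0.05, and of the later genes -0.33, with 23 of 25 below 0 and 4 at p under 0.05. The ERK feedback genes had a median of -0.30 in that fit, with 13 of 14 below 0 and 2 at p under 0.05. That fit takes the Y-linked effect from the replicate differences in HH, HT and TH, HH replicate 1 included. Without TH replicate 2 the medians of the rapid and later genes were -0.20 and -0.25, the latter with 2 lower genes at p under 0.05, and without TH replicate 1 they were 0.04 and 0.09, with 1 later gene higher. The ERK feedback median stayed between 0.02 and 0.04 with any 1 TT or TH library left out.

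**Figure D4:**
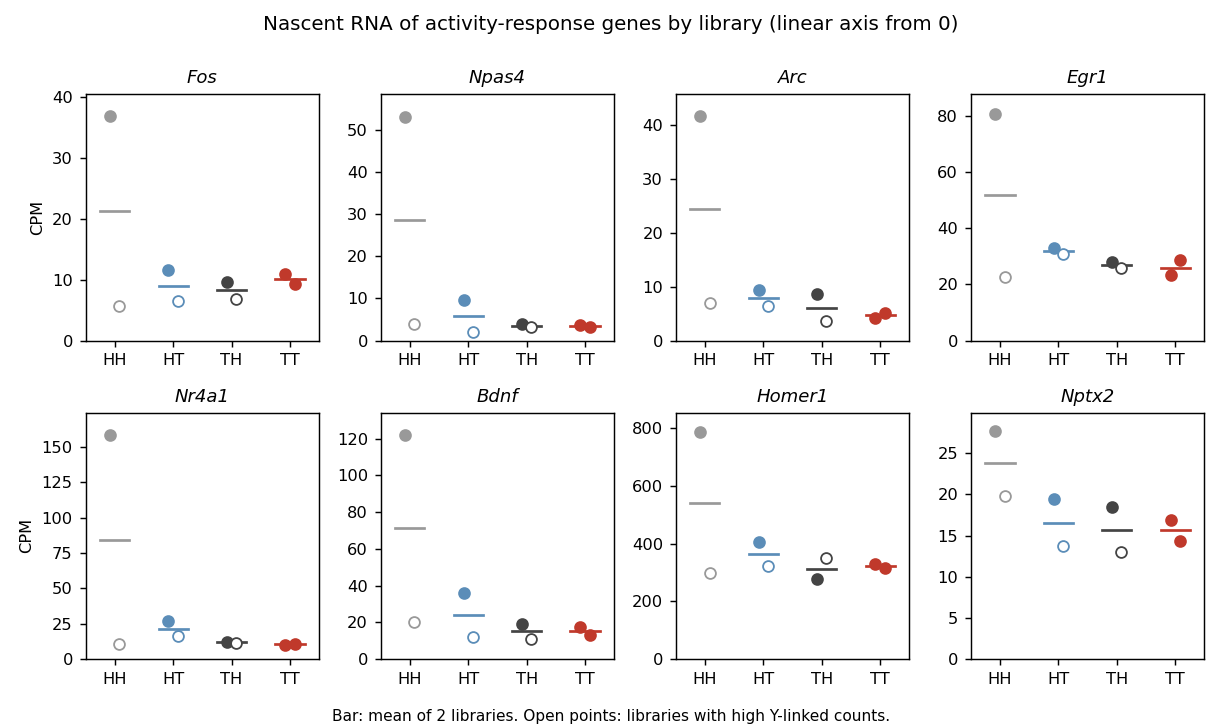
CPM of 8 activity-response genes in each library (points, bar at the mean of 2), with open points for libraries with high Y-linked counts. HH replicate 1 lies far above the other libraries for Fos, Npas4, Arc, Egr1, Nr4a1, Bdnf and Homer1, while TH and TT lie close together.

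Synaptic receptor genes and the channels that TTX blocks gave 0 genes at p under 0.05 with all libraries. Of 13 tested sodium channel genes 0 had a p under 0.05, with a median of 0.00. Of 18 AMPA receptor genes 0 had a p under 0.05. Gria1 and Gria2, the main AMPA subunits, had log2 changes of -0.10 (interval -0.49 to 0.29) and 0.08 (-0.33 to 0.49), and Cacng2, an auxiliary subunit, one of -0.25 (interval -0.51 to 0.00). The same count of 0 held for 20 synaptic scaling genes, 17 other glutamate receptor genes, 17 genes of inhibitory synapses, and 37 potassium and HCN channel genes, whose medians ran from -0.09 to -0.01. Plk2, a kinase of the scaling list, measured 79 and 70.8 CPM in TH and 67.5 and 61.3 CPM in TT (log2 change -0.22, interval -0.54 to 0.11). These intervals allow modest changes in either direction. When TH replicate 2 was left out the count was 1 lower for sodium channels and 2 lower for other glutamate receptors, whose median became 0.12, the median of inhibitory synapse genes became 0.06, and the other 4 counts were 0. With the covariate the count was 4 lower for potassium and HCN channels, with a median of -0.21, and 1 lower each for scaling and inhibitory synapse genes.

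Single neuronal genes stood lower in TT. The counts in this paragraph compare with 0.923% of all tested genes lower at p under 0.05. Rbfox3, the splicing factor known as the marker NeuN, measured 576 and 683 CPM in TH and 471 and 458 CPM in TT (log2 change -0.44, SE 0.14, interval -0.74 to -0.14). It was the 1 of 10 neuron defining markers at p under 0.05, and the median of the list was -0.13. Fezf2, a factor of deep-layer cortical neurons, measured 4.14 and 4.65 CPM in TH and 1.99 and 1.39 CPM in TT (log2 change -1.39, interval -2.33 to -0.46). Slc17a6, the glutamate transporter VGLUT2, measured 12.4 and 10.9 CPM in TH and 7.47 and 6.97 CPM in TT (log2 change -0.69, interval -1.23 to -0.14). These were 2 of 13 excitatory neuron genes, whose median was -0.11. Among 15 inhibitory neuron genes 0 had a p under 0.05, and Gad1, which makes GABA, had 335 and 249 CPM in TH and 198 and 242 CPM in TT (log2 change -0.41, interval -0.84 to 0.03). Of 31 presynaptic genes 3 had a p under 0.05, all lower: Doc2b and Doc2a, calcium sensors of release, at log2 changes of -0.35 and -0.90, and Unc13c, a priming factor, at -0.49. Cacna1i, a T-type calcium channel (-0.34), and Sipa1l1, a postsynaptic Rap regulator (-0.34), were the only members at p under 0.05 in their lists of 15 and 21 genes.

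The neuronal counts depended on single libraries. Without TT replicate 2 the median of the neuron defining markers was 0.00 with 5 of 10 below 0, that of the excitatory genes 0.02, and each of the neuron marker, excitatory, inhibitory, presynaptic, calcium channel and postsynaptic lists had 0 genes at p under 0.05. Without TT replicate 1 the marker and excitatory medians were -0.26 and -0.21. The inhibitory median was -0.04 without TH replicate 1 and -0.32 without TH replicate 2. The presynaptic list had a median of -0.15 without TH replicate 2 (-0.08 with all libraries). With the covariate 5 presynaptic, 3 excitatory and 2 inhibitory genes were lower at p under 0.05. Among all tested genes 202 were lower in that fit.

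Among the other lower genes of smallest p were Pde4a, a cyclic AMP phosphodiesterase (70.4 and 59.3 CPM in TH, 49.1 and 46 CPM in TT), and Synpo, an actin-associated protein of dendritic spines (56.1 and 41.7 CPM in TH, 36.9 and 27.7 CPM in TT). Their log2 changes were -0.45 (interval -0.74 to -0.15) and -0.60 (interval -1.04 to -0.16). Myo16, an unconventional myosin of neurons, measured 886 and 665 CPM in TH and 488 and 588 CPM in TT (log2 change -0.53, interval -0.91 to -0.14). Timeless, of the replication fork, had a log2 change of -0.55, Coro1a, an actin regulator, -0.76, Gstm7 -0.69 and Vipr2, a receptor for VIP, -1.33. All of these groups were separate, as in every gene lower at p under 0.05. On the higher side A2m, a protease inhibitor, measured 4.97 and 6.88 CPM in TH and 17.7 and 12 CPM in TT (log2 change 1.28, SE 0.31, interval 0.61 to 1.96). Fam122b, Ets1, Stk32a and Cmtm7 had log2 changes of 1.07, 0.56, 0.54 and 1.07. Of 20 unfolded protein and stress genes 2 had a p under 0.05, both higher: Psat1, of serine synthesis, with 71.5 and 77.5 CPM in TH and 106 and 99.8 CPM in TT (log2 change 0.47, interval 0.18 to 0.75), and Trib3, a stress-induced pseudokinase (log2 change 0.74, interval 0.21 to 1.28). The median of that list was 0.04. It became -0.17 without TH replicate 2, with 14 of 20 below 0, and 0.14 without TH replicate 1. With the covariate it was 0.03, with 2 higher genes at p under 0.05.

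The same 4 h of TTX was given to cultures with no earlier silencing, and HT against HH shares no library with TT against TH. Of the 195 genes higher in TT at p under 0.05, 170 (87.2%) were above 0 in HT against HH, where 50.2% of all genes were. Of the 105 lower genes 72 (68.6%) were below 0, against 49.8% of all. Of all tested genes 57.7% had the same sign in both comparisons. Without HH replicate 1 the shares were 86.7% and 71.4%, and when the genes were chosen without TH replicate 2 they were 80.2% and 74%. No test was made of these shares.

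The medians of the sterol, mitosis and oligodendrocyte lists lay on the same side in both comparisons. In HT against HH the early sterol enzymes had a median of -0.51 (12 of 12 below 0). The later enzymes had -0.46 (9 of 9). The mitosis genes had 0.72 (23 of 23 above 0), the premyelinating genes 0.42 (11 of 11) and the myelin genes 0.69 (6 of 8). Without HH replicate 1 these medians were, in the same order, -0.34, -0.37, 0.66, 0.60 and 0.57. Then 8 of the 9 later sterol enzymes and 3 of the 8 myelin genes lay below 0. Hmgcs1 had log2 changes of -0.70 in HT against HH and -0.62 in TT against TH, Stard4 -0.77 and -1.12, Smc4 0.65 and 0.67, Tspan2 0.84 and 0.60, and Psat1 0.47 and 0.47. Activity-response genes were the groups furthest apart: the rapid genes had a median of -0.70 with 20 of 22 below 0 in HT against HH, and the later genes -0.51. That difference rested on HH replicate 1, since without it the medians were 0.20 and -0.06.

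The difference between the 2 responses, tested as an interaction, passed the threshold for 0 of 11372 genes (0%), and 186 (1.64%) had an unadjusted p under 0.05. DESeq2 called 0 after adjustment, with 35 under 0.05 before it. The 22 rapid genes had 0 at p under 0.05, 2 below 0 (48.8% of all genes were) and a median interaction of 0.58, which became -0.36 without HH replicate 1. Smallest in p among genes above 5 CPM was Paqr5, a progestin receptor family member, at 37 and 34.6 CPM in TH, 47.1 and 46.4 CPM in TT, 42.3 and 46.9 CPM in HH and 33.1 and 32.8 CPM in HT (interaction 0.82, SE 0.20). Both TT libraries lay above both TH libraries, and both HT libraries below both HH libraries. Cspg4, the progenitor proteoglycan, was 67.5 and 73 CPM in HH and 114 and 120 CPM in HT, but 85.9 and 93.9 CPM in TH and 92.4 and 92.8 CPM in TT (interaction -0.69, SE 0.17). Unc119b was lowest in HH, with 10.8 and 11.7 CPM against 15.9 to 21.3 CPM in the other groups (interaction -1.07). E230034O05Rik and Fgd1, an exchange factor for Cdc42, had interactions of -1.45 and -0.61. Under all alternatives run, Cspg4 kept an interaction between -0.75 and -0.63.

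**Figure D5:**
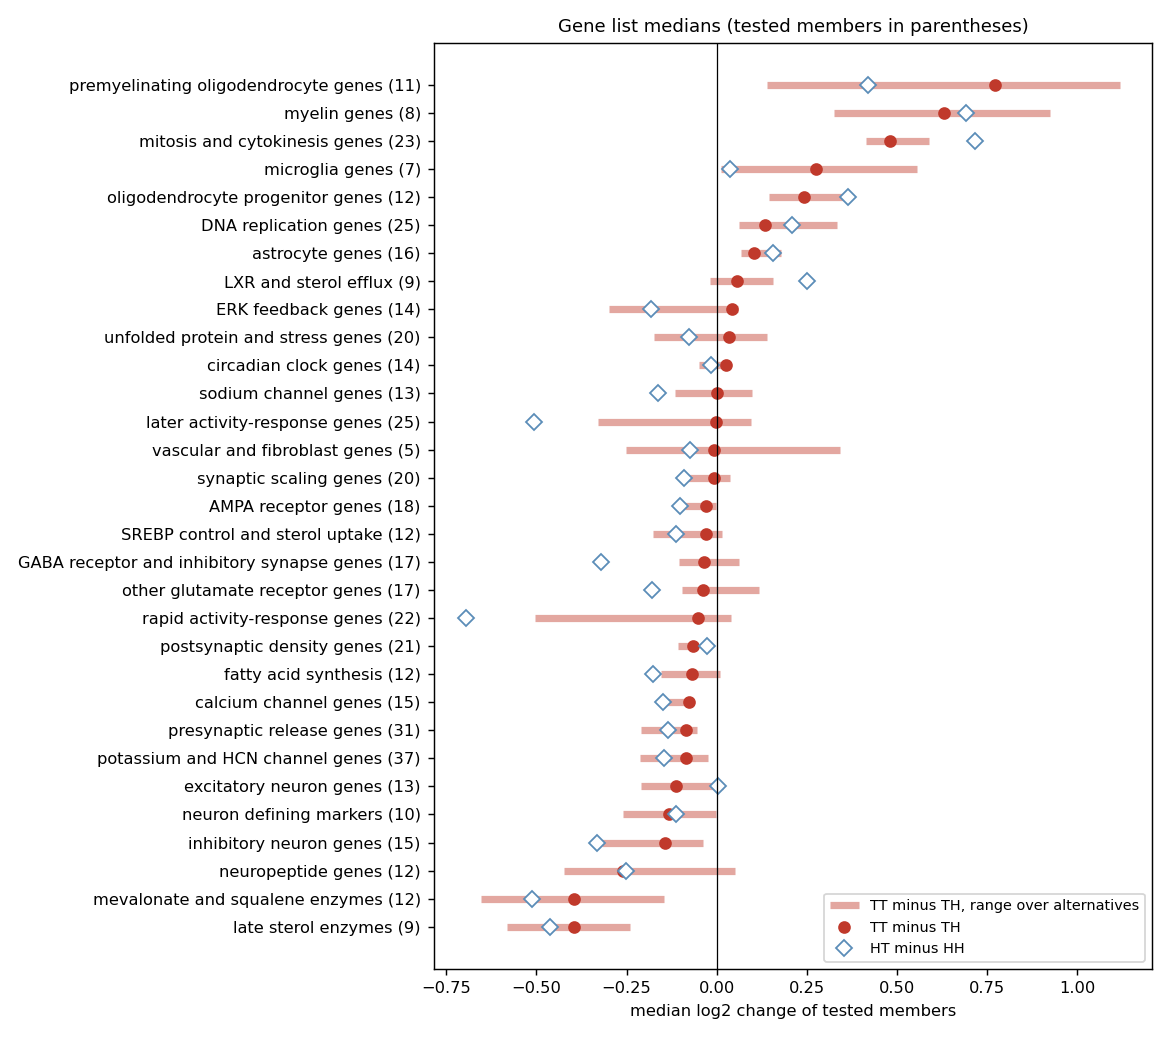
Median log2 change of the tested members of 31 gene lists for TT minus TH (red points, with the range over the alternatives as bars) and HT minus HH (blue diamonds). Sterol enzymes lie below 0 and mitosis, premyelinating and myelin genes above 0 in both comparisons, and the rapid and later activity-response genes lie lower in HT minus HH than in TT minus TH.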

How the data were processed

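BrU-seq libraries of 4 groups of 2 were analysed from a table of whole-number read counts per gene symbol, which the authors deposited without normalization. The submitters' processing notes name the rat build rn6 and the tools TopHat2, Bowtie2, featureCounts and FastQC. Not given in the sources used here are tool versions, annotation, strand and intron settings and the selection of genes. Overlapping genes may therefore share reads. Columns were matched by the number opening each sample's description, and 2 columns of no sample were not used. edgeR 4.0.16 (R 4.3.3) fitted the 4 group means after TMM scaling and filterByExpr, with robust quasi-likelihood tests and Benjamini-Hochberg adjustment over 11372 genes. log2 CPM used a prior count of 2. Standard errors and 95% intervals came from the same fit, which was tested on simulated data. DESeq2 1.42.0, limma-voom (limma 3.58.1), other scalings and filters, a replicate block and leaving out libraries were alternatives, and the Y-linked covariate was added after seeing the data.

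The gene lists and members were chosen with earlier results of these data known. The text names up to 12 genes of smallest p per direction with at least 5 CPM, up to 5 per list, 12 always named and 5 of the interaction, of which some are not reported here. Bcas1, Ccnb2, Cdk1, Cnp, Egr1, Eif2s3y, Ggps1, Mbp, Myrf, Nr4a1, Pmvk, Pole2, Sc5d, Srebf2, Tdrd5 and Top2a fall outside this rule and, like the promoter motifs, were chosen after their values were seen. The labels give no batch or date. Sequences are from RefSeq (GRCr8). Gene positions in rn6 were not analysed here. Figures used Python 3.11.15 and matplotlib 3.10.9.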

Additional observations from a re-analysis of the deposited data

How the results depend on the processing

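Precision was limited by 2 libraries per group, with 3489176 to 4959887 counts per library and a median standard error of 0.19. No gene passed with RLE size factors, either filter, DESeq2, limma-voom, the TT and TH libraries alone or the Y-linked covariate. DESeq2 had 68 higher, 32 lower and, for the interaction, 35 genes at unadjusted p under 0.05. The TT and TH libraries alone gave 182 lower genes, and the covariate 202. Of the 195 higher and 105 lower genes, 139 and 70 were shared with the covariate fit, and 104 and 56 with the fit without TH replicate 2. The replicate deviations of TH and TT correlated at 0.09 and those of HH and HT at 0.45. With 2 pairs and no label that says what a number stands for, no pairing was assumed. With a replicate block in the 4-group model 0 genes passed, and in the TT and TH libraries alone the block gave 298 higher, 208 lower and 1 gene past the threshold.

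Leaving out 1 library at a time gave 0 to 1 genes past the threshold, 94 to 329 higher and 62 to 281 lower genes, and for the interaction 0 to 1 and 133 to 291 genes. The 1 gene was Pole2 without TH replicate 2 (log2 change 7.53, adjusted p = 0.0001006). In these fits a lone library is assumed to vary like the other groups. Of the named genes, 16 changed sign when a library was left out. Their log2 changes ran from -0.35 to 0.47 for Bdnf, -0.21 to 0.085 for Egr1, -0.51 to 0.30 for Mbp, -0.25 to 0.27 for Nptx2, -0.62 to 0.16 for Sc5d, -0.30 to 1.18 for Myrf, -0.17 to 0.0868 for Npas4, -0.25 to 0.39 for Pmvk, -0.85 to 0.38 for Arc, -0.0196 to 0.11 for Cspg4, -0.0915 to 0.27 for Gria2, -0.12 to 0.22 for Homer1, -0.16 to 7.53 for Pole2, -1.48 to 0.16 for Vgf, -9.73 to 0.25 for Eif2s3y and -0.24 to 0.0605 for Gria1. With the covariate the sign turned for Bdnf (-0.79), Ccnb2 (0.16), Eif2s3y (0.31), Fos (-0.38), Gria1 (0.028), Homer1 (-0.24), Mbp (0.10) and Nptx2 (-0.24). Nptx2 also turned by under 0.01 with RLE size factors (-0.0005025), the filter of 5 CPM in 2 libraries (-0.001197), DESeq2 (-0.00467) and the TT and TH libraries alone (-0.0006318). The cause was not tested.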

Other observations

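Tdrd5, a germ line gene named after its values were seen, had the smallest p of all 11372 genes (log2 change 2.85, SE 0.56) at low levels: 0.276 and 0.607 CPM in TH, 3.74 and 3.39 CPM in TT, 3.39 and 3.39 CPM in HH and 2.33 and 2.25 CPM in HT. Only TH was low, and its adjusted p rounded to 1. The interaction of Tdrd5 stood between 3.05 and 4.10 on the log2 scale under the alternatives.

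Neuropeptide genes had a median log2 change of -0.26 in TT against TH, with 11 of 12 tested genes below 0 and 0 at p under 0.05, and the median depended on single libraries. It was 0.05 without TH replicate 1 and -0.42 without TH replicate 2. Without TT replicate 1 it was -0.41 and without TT replicate 2 -0.07. With the Y-linked covariate it was -0.34, with 3 lower genes at p under 0.05, where 202 of all tested genes were lower. The 14 circadian clock genes had 0 at p under 0.05 (2 higher without TH replicate 2, and 1 higher and 2 lower with the covariate), with Per1 at 36.7 and 34.2 CPM in TH and 26.9 and 25.9 CPM in TT (log2 change -0.42, interval -1.53 to 0.68).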
